A study of Mus musculus with 24 samples.

Results

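The mouse genome carries a large set of genes named Zfp, for zinc finger protein, and 185 of them were expressed in the preimplantation embryos of this study at a mean of 3 TPM or more over all 24 embryos. TPM (transcript abundance scaled to a fixed library total) is a relative level corrected for transcript length. The 185 genes were chosen by symbol (Zfp followed by a digit, Zfp42 left out) and by that mean level, out of 346 such genes among the 15625 genes of the TPM table and 400 in the count table. The values that chose them are their own mean TPM, so their levels are given as a description. Zfp397 (3.05 TPM), Zfp9 (3.04 TPM) and Zfp113 (3.03 TPM) lay just inside the threshold, and Zfp251 (2.99 TPM), Zfp513 (2.99 TPM) and Zfp956 (2.96 TPM) just outside. Of the 185 members, 23 would have a mean under 3 TPM without their own highest group, so that counts over the members describe them and support nothing.

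RNA of single ICR mouse embryos made by in vitro fertilisation was sequenced with Smart-seq2, which reverse-transcribes polyadenylated RNA into full-length cDNA. The control embryos were left intact and comprised 4 at the 8-cell stage, 5 morulae and 3 blastocysts. For the split embryos, the blastomeres of late two-cell embryos were mechanically parted in biopsy medium (G-PGD) under a micromanipulator, and each grew on its own in a modified sodium hyaluronate gel to give 6 split morulae and 6 split blastocysts, which formed 3 sister pairs at each stage. Separation and gel culture came together, so their parts in a difference between split and control embryos cannot be told apart. The labels named no batch, litter or sex and did not say that replicates of a group came from separate cultures, so p-values speak only of the spread among these samples. Library totals ran from 11316911 to 38514899 counted reads, and intervals cover counting error only. Trophectoderm markers, the genes of the outer cells of the blastocyst, summed to 3.36 to 29.4 CPM in 8-cell embryos and to 2138 to 3617 CPM in control blastocysts, where CPM scales counts to a fixed library total. All 5 markers of pluripotent cells except Sox2, which was at 0 at the 8-cell stage, had counts in every group. Of 10 cumulus and granulosa markers at most 4 had counts in any group, and their sum stayed at or under 13.2 CPM.

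Most Zfp genes encode proteins with C2H2 fingers, loops of protein that are held by a zinc ion and that read DNA in tandem. Many also carry a KRAB domain, which recruits the corepressor TRIM28 (KAP1) and, through it, the H3K9 methyltransferase SETDB1, so that the bound site is silenced. KRAB zinc finger proteins silence retrotransposons and hold imprinted methylation through the time when the early embryo erases most DNA methylation. Other Zfp genes encode activators, RNA-binding proteins, a ribosome quality control ligase and spindle proteins. Most of the members without the KRAB pattern still hold C2H2 fingers.

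A coding transcript was found for 183 members in the GENCODE mouse annotation. A KRAB motif was matched in the reading frame of 114 and in none of the other 69. The median number of C2H2 fingers matched was 11.5 in the members with the KRAB pattern and 5 in those without it, and the highest was 30. Zfp36, Zfp36l1, Zfp36l2, Zfp185 and Zfp330 held no C2H2 pattern. Zfp36, Zfp36l1 and Zfp36l2 encode CCCH-finger proteins that bind AU-rich elements and speed mRNA decay, and Zfp185 encodes a LIM-domain protein of the actin cytoskeleton. Zfp335os is not protein coding and lies antisense, and its reads cannot be told from those of its partner here. The strand setting of the counting was not given. Close copies were frequent, since 31 members shared 20% or more of their 50-base transcript words with another gene. Their values rest on the counting of reads that match more than 1 place, also not given.

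Members lay in rows on the chromosomes. Runs of neighbouring Zfp genes with 5 or more members held 43 of the 183 members that could be placed. The chromosome 4 run held 13 members among 16 Zfp genes and the longest chromosome 17 run 14 among 20, and all members of both runs had the KRAB pattern. The promoter windows of 2 chromosome 4 neighbours are shown because Zfp985 was the most abundant KRAB member and Zfp979 was the next most abundant of the run. The other 3 windows belong to members without the KRAB pattern that were lower in split than in control blastocysts. Each runs from 250 bases before to 50 bases after the RefSeq start, 5′ to 3′ on the gene's strand, in build GRCm38.p6, which is not the build of the deposited tables. Capitals mark CCAAT and GGGCGG, searched on both strands.
Zfp985: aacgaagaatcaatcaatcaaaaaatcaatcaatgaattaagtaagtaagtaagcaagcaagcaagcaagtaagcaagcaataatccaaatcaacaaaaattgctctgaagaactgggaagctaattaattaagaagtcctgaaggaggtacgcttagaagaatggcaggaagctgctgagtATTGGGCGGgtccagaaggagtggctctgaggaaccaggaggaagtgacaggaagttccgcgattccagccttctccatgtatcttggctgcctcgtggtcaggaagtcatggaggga
Zfp979: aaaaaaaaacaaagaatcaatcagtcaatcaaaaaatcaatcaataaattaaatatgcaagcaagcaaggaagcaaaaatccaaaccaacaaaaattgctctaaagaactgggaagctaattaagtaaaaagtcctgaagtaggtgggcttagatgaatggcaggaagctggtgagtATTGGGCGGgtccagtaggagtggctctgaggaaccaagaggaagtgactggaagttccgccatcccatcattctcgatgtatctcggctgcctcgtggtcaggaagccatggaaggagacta
Zfp131: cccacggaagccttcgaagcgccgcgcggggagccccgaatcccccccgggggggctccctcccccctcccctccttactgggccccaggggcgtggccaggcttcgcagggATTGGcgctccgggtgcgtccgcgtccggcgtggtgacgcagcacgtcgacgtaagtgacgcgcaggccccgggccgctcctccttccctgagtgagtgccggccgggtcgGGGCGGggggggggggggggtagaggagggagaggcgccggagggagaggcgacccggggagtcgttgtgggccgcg
Zfp106: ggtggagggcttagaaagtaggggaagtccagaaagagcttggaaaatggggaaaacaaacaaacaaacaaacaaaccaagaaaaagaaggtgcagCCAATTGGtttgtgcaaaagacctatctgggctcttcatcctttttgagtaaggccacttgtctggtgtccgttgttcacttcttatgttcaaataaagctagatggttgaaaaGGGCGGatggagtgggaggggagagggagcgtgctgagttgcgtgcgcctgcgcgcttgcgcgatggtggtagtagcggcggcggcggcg
Zfp280d: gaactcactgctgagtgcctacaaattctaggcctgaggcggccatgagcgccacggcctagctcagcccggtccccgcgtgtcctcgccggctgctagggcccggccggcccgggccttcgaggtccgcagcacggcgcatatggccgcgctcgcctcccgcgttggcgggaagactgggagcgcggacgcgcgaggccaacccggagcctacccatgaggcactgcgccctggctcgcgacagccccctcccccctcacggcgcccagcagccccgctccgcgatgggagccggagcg
The windows lay at chr4:147553027-147553326 on the plus strand (Zfp985), chr4:147642459-147642758 on the minus strand (Zfp979), chr13:119790683-119790982 on the minus strand (Zfp131), chr2:120563810-120564109 on the minus strand (Zfp106) and chr9:72274638-72274937 on the plus strand (Zfp280d). The Zfp985 and Zfp979 windows aligned with 255 identical positions in 305 columns (83.6%), and both held the run ATTGGGCGG, in which CCAAT on the reverse strand and GGGCGG share bases. The other pairs among the windows aligned at 41.2% to 53.6%. A RefSeq window was matched for 157 of the 185 members. CCAAT was found in 56.1% of these and in 37.9% of all 27025 windows, and GGGCGG in 51.0% and 35.9%. CCGGAAG was found in 21.7% of the members' windows and 9.12% of all windows, and TATAAA in 5.10% and 14.2%. TGACGTCA was found in 1.91% and 1.88% and AAGATGG in 9.55% and 6.48%. All motifs were searched on both strands. The median GC content was 51.3% in the windows of members with the KRAB pattern, 61.2% in those without it and 52.7% over all windows.

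The summed level of the 185 genes was a small part of the embryo's mRNA and was lower at the blastocyst. It was 5364 ± 126 TPM (SD, n = 4) in 8-cell embryos, 5744 ± 336 TPM (n = 5) in control morulae and 3855 ± 329 TPM (n = 3) in control blastocysts. Split morulae had 5217 ± 582 TPM and split blastocysts 2904 ± 318 TPM (n = 6 embryos each). These came as 3 sister pairs at each stage, so the 6 values are not independent. The 3 control blastocysts, at 3509 to 4164 TPM, lay above all 6 split blastocysts, at 2367 to 3295 TPM, and below all 5 control morulae. TPM are shares of a library, so a lower sum cannot be told apart from more RNA of other genes, and fewer cells of a type cannot be told apart from less RNA per cell. A pair of genes, Zfp706 and Zfp985, made up 45.2% of the sum in control morulae and 28.5% in control blastocysts. Without them the sums were 3594 TPM in 8-cell embryos, 3148 TPM in control morulae, 2746 TPM in control blastocysts and 2076 TPM in split blastocysts, and control and split blastocysts still did not overlap (2644 to 2875 TPM against 1712 to 2310 TPM).

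**Figure D1:**
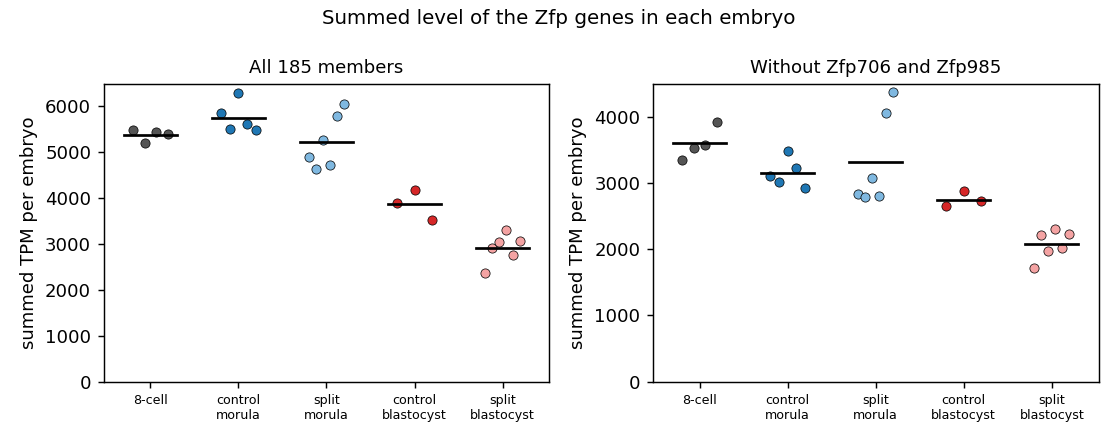
Summed TPM of the Zfp genes in each of 24 embryos, for all 185 members (left) and without Zfp706 and Zfp985 (right), with points for embryos and lines for group means. The 6 split blastocysts (2367 to 3295 TPM) lie below the 3 control blastocysts (3509 to 4164 TPM).

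Mean levels ran from 3.03 TPM (Zfp113) to 1101 TPM (Zfp706), with 16 members at a mean of 50 TPM or more, 80 at 10 TPM or more and 105 below 10 TPM. Among the intact stages, 64 members were highest at the 8-cell stage, 52 at the morula and 69 at the blastocyst. Few members went undetected. With every library thinned to the smallest total, 1 to 2 of the 185 had no count in a control blastocyst, 1 to 11 in a control morula and 8 to 18 in an 8-cell embryo. Split morulae lacked 14 to 33 members, more than any control morula, and split blastocysts 0 to 13. All genes went the same way in these libraries, with 11001 ± 603 genes (SD) detected per thinned split morula against 12795 ± 327 per control morula.

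Zfp706, a small protein with a single matched finger that is known to be needed for mouse embryonic stem cells to leave self-renewal, was by far the most abundant member. Its level was 1997, 1591, 1767 and 1349 TPM in the 8-cell embryos, 1494, 1374, 1352, 1309 and 1716 TPM in the control morulae and 767, 676 and 610 TPM in the control blastocysts. Split morulae ranged from 776 through a median of 1075 to 1444 TPM, and split blastocysts from 500.3 through 575 to 757 TPM. Every blastocyst, split or intact, lay below every morula. The other leading members followed far behind. Zfp985, a KRAB gene with 10 matched fingers, had a mean of 554 TPM over all embryos, Zfp936, another KRAB gene, 117 TPM, and Zfp131, which encodes a BTB-domain zinc finger transcription factor, 106 TPM. After them came Zfp820 (93.7 TPM), Zfp207 (83.7 TPM), Zfp367 (78.5 TPM), Zfp51 (71.1 TPM), Zfp825 (68.2 TPM), Zfp932 (61.4 TPM), Zfp960 (61.3 TPM) and Zfp958 (53.9 TPM). Of these 12, Zfp960, Zfp932 and Zfp825 shared 82.7%, 37.0% and 29.5% of their transcript words with other genes, so their levels are uncertain.

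The first comparison asked which Zfp genes changed between the 8-cell stage and the morula in intact embryos. Of the 185 members 46 were called, 20 higher and 26 lower in control morulae, at an adjusted p under 0.05 in edgeR's quasi-likelihood test over all genes. That is 24.9% of the members, and 24.9% of all 15875 tested genes were called too, 14.3% higher and 10.7% lower. The number called was therefore no feature of the 185 genes as a set. The median log2 fold change was -0.05 over the members and 0.09 over all genes. The direction of the calls lay differently in the members with and without the KRAB pattern, with 15 higher and 7 lower among 114 against 5 higher and 19 lower among 69. The difference between these 2 classes was not tested.

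Among KRAB members Zfp985 gained most in level. It stood at 118, 70.7, 84 and 105 TPM in the 8-cell embryos and at 1258, 1120, 1447, 1066 and 846 TPM in the control morulae. The groups lay far apart, and the log2 fold change was 3.54 ± 0.33 (SE; adjusted p = 1.61e-07). Zfp317, a KRAB gene with 13 matched fingers, rose from 0.608, 0.443, 6.51 and 2.79 TPM to 48.7, 41.8, 66.9, 58.2 and 19.2 TPM (log2 4.13 ± 0.63, adjusted p = 7.49e-05). Zfp951 rose from at most 2.45 TPM to 8.58 to 39.2 TPM, and Zfp931 from at most 1.07 TPM to 4.91 to 14 TPM. Zfp26 rose from at most 0.163 TPM to 2.81 to 7.61 TPM. All these groups were apart, although Zfp931 shared 23.3% of its words with other genes. Zfp119a had 1 count over all 8-cell libraries and 337 over the control morulae, a ratio of 499 per library size (95% interval 89.0 to 19767), and 1 of the 5 morulae had none. The control morula values of Zfp26 and Zfp119a count toward the mean TPM that made them members, so their rises are a description.

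The members without the KRAB pattern that rose were Zfp691, Zfp367, Zfp704, Zfp185 and Zfp36l1. Zfp691 went from 0.307, 0.702, 0.476 and 0.232 TPM to 51.7, 41.6, 10.7, 27.3 and 11.5 TPM (log2 5.98 ± 0.84, adjusted p = 1.84e-05), with no overlap. Zfp367 rose from 11 to 39.6 TPM to 81 to 194 TPM. Zfp704 rose from at most 0.836 TPM to 3.33 to 5.57 TPM, a call lost with only the compared groups in the fit (adjusted p = 0.0574). For Zfp704 and Zfp185 the control morula values count toward the mean TPM that made them members, so these rises are a description. Zfp185 and Zfp36l1 had 2 counts each over the 8-cell libraries. Their ratios were 131 for Zfp185 (95% interval 35.7 to 1090) and 30.4 for Zfp36l1 (7.88 to 259), and both calls were lost without several single libraries, namely 8-cell embryos 1, 3 and 4 and control morula 4 for Zfp185 (adjusted p = 0.0619 to 0.0717) and any 8-cell embryo and control morulae 4 and 5, among others, for Zfp36l1 (0.0528 to 0.0881). Over all alternatives, other tools among them, Zfp185 lost its call in 7 of 25 (up to 0.300) and Zfp36l1 in 15 of 25 (up to 0.589).

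The largest fall was that of Zfp644, whose product partners with the H3K9 methyltransferases G9a and GLP. It stood at 38.6, 29.8, 67.1 and 34.1 TPM in the 8-cell embryos and at 1.81, 2.72, 4.19, 0.838 and 4.73 TPM in the control morulae. The lowest 8-cell embryo lay far above the highest morula, and the log2 fold change was -3.97 ± 0.44 (adjusted p = 9.03e-07). Zfp292, a large multi-finger transcription factor, fell from 17.2 to 32.3 TPM to 1.52 to 4.56 TPM (log2 -3.21 ± 0.44). Zfp638, an RNA- and DNA-binding nuclear protein that brings the silencing complex HUSH to retroviral DNA, fell from 18 to 37.8 TPM to 0.390 to 6.25 TPM (log2 -2.80 ± 0.49). Zfp770 also fell, from 5.87 to 16.6 TPM to 0.171 to 4.80 TPM, and lost its call without 8-cell embryo 2 (adjusted p = 0.0612) and in another alternative (0.141). None of these 4 had the KRAB pattern. The 2 KRAB genes among the 6 largest falls were Zfp873, from 29.4 to 88.4 TPM to 1.93 to 12 TPM, and Zfp212, from 8.29 to 22 TPM to 0.331 to 2.69 TPM. The call of Zfp212, whose 22 TPM is 1 embryo above 3 at 8.29 to 8.6 TPM, was lost with each split embryo as a sample (adjusted p = 0.0776).

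Zfp57 and Zfp445 keep methylation at imprinted loci, Zfp568 represses a placental transcript of Igf2 in the mouse, Zfp809 silences retroviruses by their primer binding site, and Zfp932 binds endogenous retroviruses of the ERVK class. Of 16 tested genes of this list, 9 of them members, 2 rose (Zfp57 and Zfp37, no member) and 2 fell (Zfp568 and Zfp932), which is 25% of the list against 24.9% of all genes. The list median was -0.57 on the log2 scale against 0.09 over all genes. Zfp57 stood at 1.75, 2.87, 0.0464 and 1.38 TPM in the 8-cell embryos and at 14, 17.3, 5.77, 5.43 and 2.22 TPM in the control morulae. The groups overlapped by 1 morula, and the call (log2 2.51 ± 0.75, adjusted p = 0.0184) was lost with only the compared groups in the fit (adjusted p = 0.0876). Zfp57 stood at 44.7, 21.2 and 40.2 TPM in the control blastocysts, above every control morula, but this difference was not called in edgeR. Zfp568 fell from 82.3, 58.1, 96.7 and 137 TPM to 13.7, 23.6, 31.1, 19.1 and 21 TPM, without overlap (log2 -2.15 ± 0.26, adjusted p = 2.62e-06). Zfp932 fell from 119 ± 27.5 to 70.7 ± 16.4 TPM, a call lost without each of 5 single libraries (8-cell 2 and 3 and control morulae 1, 3 and 5, adjusted p = 0.0513 to 0.0908). Zfp445 (15.4 ± 6.68 and 10.2 ± 2.63 TPM) and Zfp809 (23.3 ± 18.6 and 30.8 ± 10.3 TPM) did not pass.

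Members that act on RNA, ribosomes or the spindle gave 1 rise and 4 falls among 17 tested genes, 14 of them members, or 29.4% called against 24.9% of all genes. Zfp622, whose yeast homologue matures the large ribosomal subunit, fell from 32.9, 131, 86.5 and 87.1 TPM to 21.3, 27.0, 22.3, 28.3 and 25.3 TPM (log2 -1.81 ± 0.29, adjusted p = 8.24e-05). The morulae lay close together, below every 8-cell embryo. Zfp207 (BuGZ), which loads BUB3 at kinetochores, fell from 101 to 125 TPM to 35.1 to 92.4 TPM. Zfp598, the ubiquitin ligase that senses collided ribosomes, fell from 15.7 ± 6.73 to 6.17 ± 1.88 TPM, a call lost without 8-cell embryo 1 or 4 or control morula 1 or 4 (adjusted p = 0.0535 to 0.0910). Zfp638 and Zfp36l1, described above, were the other fall and the rise. Among 37 tested activators and chromatin partners, 22 of them members, 2 rose (Zfp691 and Zfp516, no member) and 7 fell, or 24.3% against the same 24.9%. The falls included Zfp296, a gene of pluripotent cells, from 27.4 to 82.8 TPM to 6.57 to 29.3 TPM, and Zfp410, a direct activator of Chd4, from 54.6 ± 19.1 to 26.5 ± 4.97 TPM. Chd4 itself, which encodes the NuRD remodeller, fell too (log2 -1.89 ± 0.25, adjusted p = 9.48e-06). From control morula to control blastocyst Chd4 was called higher (log2 1.02 to 1.73 over the alternatives), whereas Zfp410 was not called. A link between these genes was not tested. The call of Zfp296 was lost without 8-cell embryo 1 or 4 or control morula 3 or 5 (adjusted p = 0.0596 to 0.0969) and in another alternative (0.101). Zfp91, a ubiquitin ligase gene, fell from 11.7 ± 1.38 to 6.64 ± 1.98 TPM in a call lost in 14 of 26 alternatives.

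**Figure D2:**
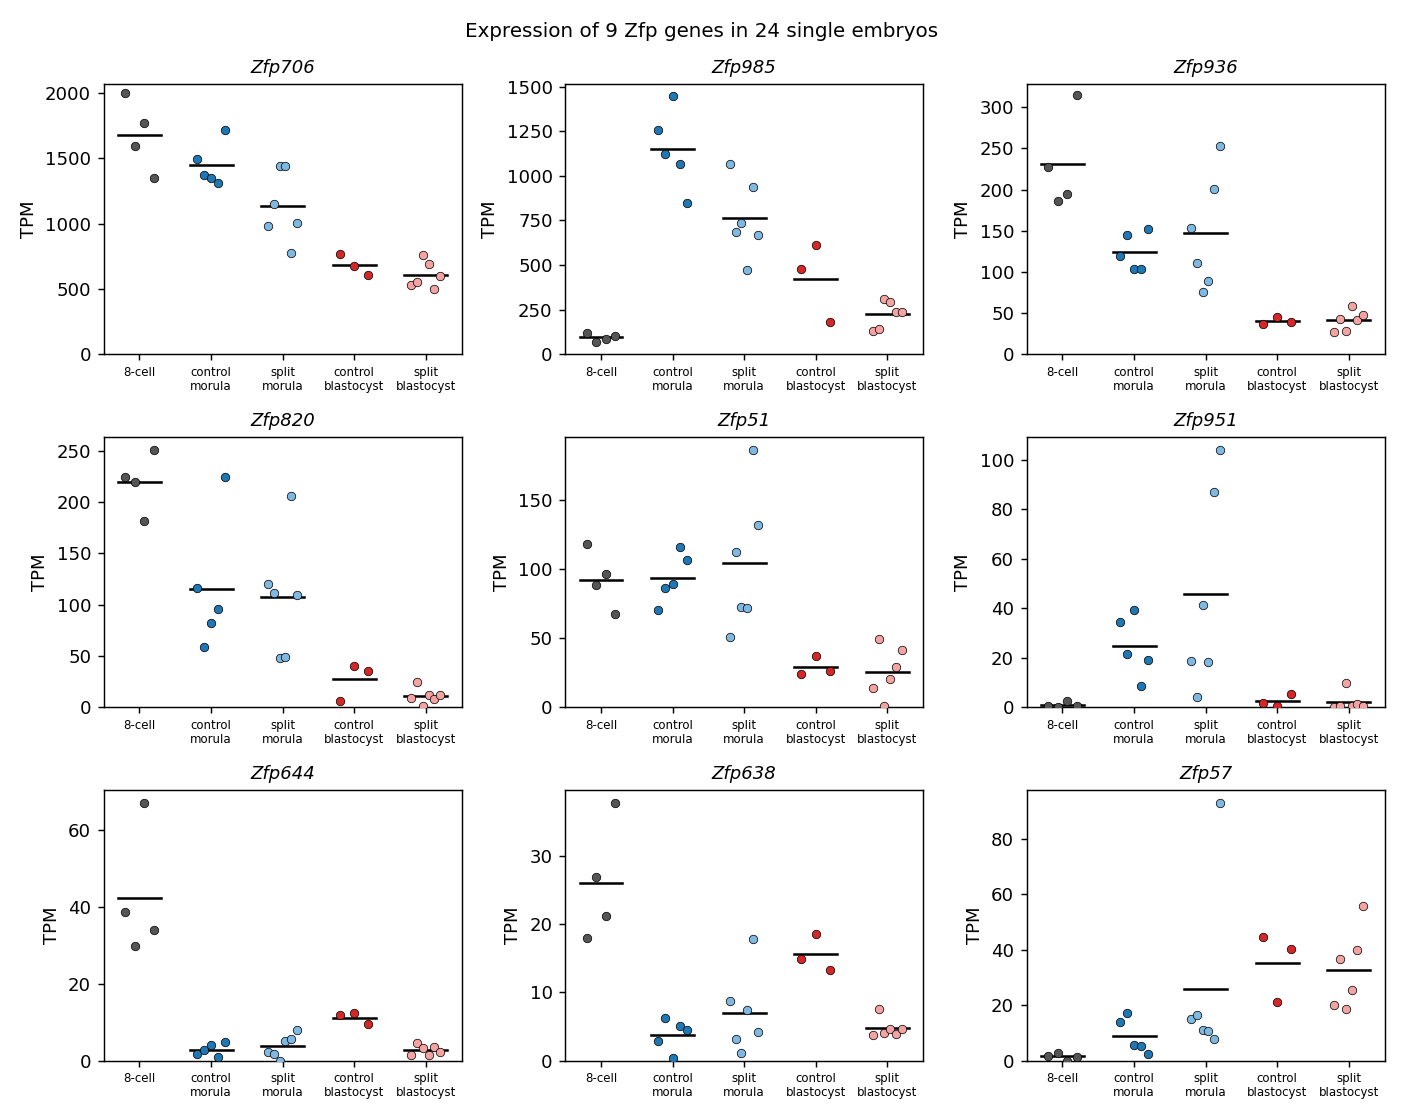
TPM of 9 Zfp genes in each of 24 embryos (linear axes from 0, 1 point per embryo, lines for group means). Zfp985 and Zfp951 are high in morulae, Zfp706, Zfp936, Zfp820 and Zfp51 are low in blastocysts, and Zfp644 and Zfp638 are high at the 8-cell stage. Zfp57 is higher in control blastocysts than in control morulae, a difference not called in edgeR, with 1 split morula at 92.9 TPM above every blastocyst.

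The second comparison, control blastocysts against control morulae, called 25 members, 6 higher and 19 lower. That is 13.5% of the members against 10.6% of all genes, of which 3.12% were higher and 7.46% lower, and the share of the members that fell was 10.3%. The median log2 fold change was -0.40 over members and 0.11 over all genes. On the log2(TPM + 1) scale, where the median of all genes stood at 0.37, that of the members turned to 0.20 and limma called 21 higher and 19 lower. At an unadjusted p under 0.05 limma there had 34.1% of the members and 35.7% of all genes. The median of the members lay below that of all genes on both scales, while its sign depended on the scale. With a pseudocount of 0.1 limma called 15 higher and 18 lower. Without control blastocyst 1 or 3 the count was 14 or 16. With edgeR all 14 called KRAB members were lower and none was higher, whereas the other class had 6 higher and 5 lower. On log2(TPM + 1) these counts were 7 higher and 16 lower and 14 higher and 3 lower.

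Zfp985 fell after its rise, from 846 to 1447 TPM in control morulae to 481, 613 and 179 TPM in control blastocysts (log2 -1.87 ± 0.34, adjusted p = 0.000716). All 3 blastocysts lay below all 5 morulae and above every 8-cell embryo. Zfp936 fell from 119, 145, 103, 104 and 152 TPM to 36.7, 45.8 and 39.7 TPM (log2 -2.07 ± 0.27, adjusted p = 1.89e-05), after a fall from 187 to 314 TPM at the 8-cell stage (log2 -0.94 ± 0.23). It stepped down at both transitions. Zfp820 stood at 6.66, 40.2 and 35.7 TPM in control blastocysts, below the lowest control morula at 58.8 TPM. Zfp51 stood at 24.4, 37.5 and 26.6 TPM, below 70.1 to 116 TPM in control morulae. Both lie in the long chromosome 17 run, in which 3 of 14 members fell and none rose, where 7.46% of all genes fell. The run had a median log2 fold change of -1.60 with edgeR and -0.85 on log2(TPM + 1), where 1 member was called higher. Zfp54 was the other fall, and its call was lost without control blastocyst 1 or 3 (adjusted p = 0.112 and 0.0785) and in 2 other alternatives (up to 0.269). Beside this run and that of chromosome 4, given below, the remaining runs held 5 or 6 members each, too few for their counts to set them apart. In the chromosome 13 run 1 of 6 members fell, and in each shorter chromosome 17 run 0 of 5. None rose, and the edgeR medians were -1.20, -1.13 and -0.55, so a median below 0 was not particular to the longer runs.

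In the chromosome 4 run 4 of 13 members fell (Zfp985, Zfp979, Zfp990 and Zfp534) and none rose, where 7.46% of all genes fell. The run had a median of -1.14 with edgeR and -0.56 on log2(TPM + 1). Zfp979 fell from 56.9 to 130.2 TPM to 21.6, 21.5 and 41.4 TPM (log2 -2.21 ± 0.40, adjusted p = 0.000562). Zfp990 fell from 45.1 to 85.8 TPM to 2.05, 34.4 and 5.54 TPM. The calls of Zfp990 and Zfp534 were lost without control blastocyst 3 (adjusted p = 0.0914 and 0.0778), and that of Zfp534 without control blastocyst 1 (0.162) or control morula 3 or 4 as well (0.0784 and 0.0654). Zfp979, Zfp990 and Zfp534 shared 26.7%, 29.1% and 68.4% of their words with other genes. Zfp985, which shared 15.9%, was the only member of the run whose mean passed 100 TPM in any group.

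**Figure D3:**
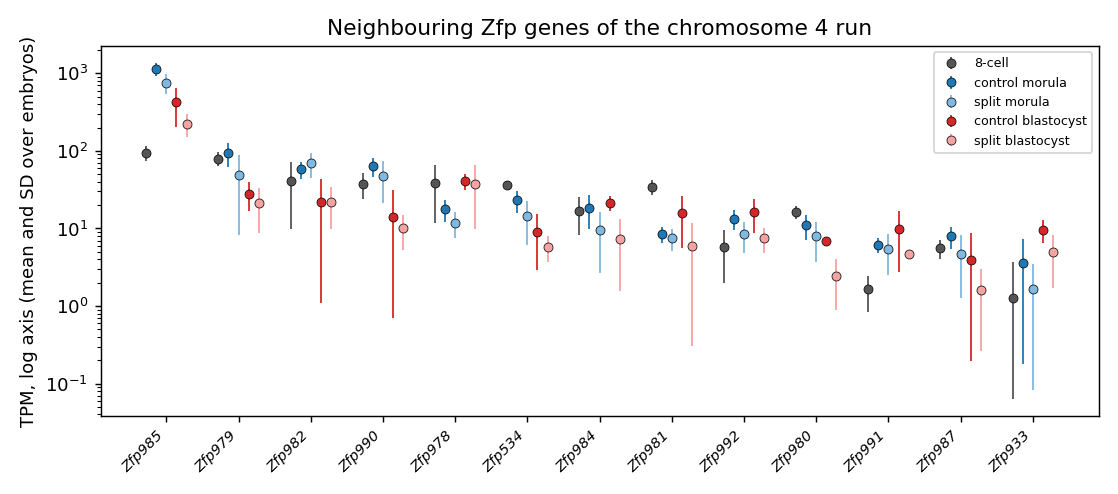
TPM of the 13 members of the chromosome 4 run on a log axis, with points for group means and bars for the SD over embryos. Zfp985 reaches 1147 TPM in control morulae, and no other member of the run reaches 100 TPM in any group.

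The other large falls were those of Zfp951, from 8.58 to 39.2 TPM to 1.66, 0.585 and 5.33 TPM, of Zfp960, from 37.5 to 91.8 TPM to 8.85, 19.5 and 15.4 TPM, and of Zfp874a, from 4.40 to 11.4 TPM to 2.65, 1.76 and 0.899 TPM. No group overlapped, but the call of Zfp951 was lost without control blastocyst 1 or 2 (adjusted p = 0.118 and 0.103). That of Zfp874a was lost in 8 of 26 alternatives (up to 0.322), leaving out any control blastocyst or control morula 2 or 4 among them (0.0548 to 0.159). Zfp932 fell from 55.9 to 94.1 TPM to 28.6, 41.6 and 31.9 TPM (log2 -1.52 ± 0.30, adjusted p = 0.00149). Zfp960 and Zfp932 each shared 20% or more of their transcript words with other genes, so their falls are as uncertain as their levels. Among members without the KRAB pattern, Zfp143, a promoter-binding activator, fell from 35 to 73.9 TPM to 23.4, 30 and 21.7 TPM (log2 -1.66 ± 0.32, adjusted p = 0.00119). Zfp706 fell by 1.54 ± 0.19 on the log2 scale (adjusted p = 6.66e-06), and Zfp637 fell from 21.8 to 61.9 TPM to 28, 5.55 and 26.1 TPM in a call lost without control blastocyst 2 (adjusted p = 0.0674). Zfp131, Zfp330 and the KRAB gene Zfp655 also passed, but their calls were lost in 8, 9 and 15 of 26 alternatives, control blastocysts 1 and 3 among the libraries whose loss ended those of Zfp131 (adjusted p = 0.122 and 0.180) and Zfp330 (0.208 and 0.106).

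The 6 rises were Zfp36l1, Zfp280c, Zfp644, Zfp664, Zfp292 and Zfp106. Zfp36l1 stood at 0.275, 0, 0.0589, 0.775 and 0.803 TPM in control morulae and at 24.4, 16.6 and 16.7 TPM in control blastocysts. Zfp280c stood at 0 to 0.706 TPM and then at 24.4, 9.59 and 12.4 TPM. Both were near 0 in every control morula and clear of it in every control blastocyst, with log2 fold changes of 5.18 ± 1.45 and 5.64 ± 1.42. Their blastocyst values count toward the mean TPM that made them members, so these rises are a description. Leaving out any of the 3 control blastocysts (or control morula 1 or 3) ended the call of Zfp36l1, at adjusted p of 0.0507 to 0.0821, and leaving out control blastocyst 1 ended that of Zfp280c (0.0605). Zfp106, an RNA-binding protein that maintains motor neurons in the mouse, rose from 17.5, 31.8, 15.3, 17.8 and 27.3 TPM to 66.2, 80.4 and 81.6 TPM (log2 1.32 ± 0.29, adjusted p = 0.00315). Zfp664 rose from 4.05 to 6.68 TPM to 14.7 to 21.3 TPM (log2 1.47 ± 0.33). Zfp644 and Zfp292 turned back up from their morula lows, to 9.42 to 12.3 TPM and 8.18 to 12.6 TPM, and stayed under every 8-cell embryo. The call of Zfp644 was lost without control blastocyst 1 or 2 or control morula 1 (adjusted p = 0.0636 to 0.0932) and in another alternative (0.237). That of Zfp292 was lost in 9 of 26 alternatives (up to 0.379), leaving out any control blastocyst or control morula 1, 3, 4 or 5 among them (0.0622 to 0.180).

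Split morulae were compared with control morulae to ask whether separation changed the Zfp genes by that stage. With edgeR 0 of 185 members were called, and 0.126% of all genes were (0.0693% higher, 0.0567% lower). At an unadjusted p under 0.05 there were 19 members (10.3%), against 15.0% of all genes. DESeq2 called 5 members (Zfp574 and Zfp212 higher, Zfp280d, Zfp758 and Zfp808 lower), and limma on log2(TPM + 1) called 0. The share of all genes that DESeq2 called is not given. The p-values do not show that the groups were alike, since split morulae spread widely. Trophectoderm markers summed to 207 to 2258 CPM in split and 439 to 907 CPM in control morulae. Of the blood and immune markers only Hba-a1 had counts, at 2.12 to 110 CPM in split and 0 to 3.93 CPM in control morulae. The part of either in the Zfp values was not tested. Zfp758, a KRAB gene of the long chromosome 17 run, had 3 counts over all 6 split morulae and 612 over the 5 control morulae, a ratio of 243 (95% interval 82.8 to 1183) with an adjusted p of 0.125 in edgeR. In control morulae it stood at 10.4, 0, 8.47, 0.0487 and 10.9 TPM, so 2 of the 5 were as low as the split morulae, and split blastocysts had 98 counts. Zfp212 stood at 0 through a median of 11.6 to 34.1 TPM in split morulae against 0.331 to 2.69 TPM (log2 2.78 ± 0.79, adjusted p = 0.141), with 2 of 6 split embryos inside or below the control range. Zfp706 differed by -0.53 ± 0.18 (adjusted p = 0.216) and Zfp985 by -0.74 ± 0.32 (adjusted p = 0.302).

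Sister embryos were set against embryos of different pairs. The median absolute log2 difference over the members was 0.856 to 1.04 between sister split morulae (3 pairs) and 0.764 to 1.28 between those that were not sisters (12 pairings). For split blastocysts it was 0.474 to 0.838 and 0.433 to 0.835, so the ranges overlapped at both stages. Over all genes the differences were smaller for split morulae, at 0.414 to 0.589 between sisters and 0.451 to 0.708 between others. For split blastocysts they were 0.356 to 0.509 and 0.379 to 0.547 over all genes. No test was run on them.

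Between split and control blastocysts 4 members were called and all were lower in split blastocysts, namely Zfp131, Zfp106, Zfp280d and Zfp644. They make up 2.16% of the members against 4.74% of all genes, of which 3.42% were higher and 1.32% lower. None had the KRAB pattern, and 0 of 114 KRAB members were called (1 higher and 1 lower on log2(TPM + 1) and also with DESeq2). The median log2 fold change was -0.19 over the members and 0.00 over all genes. The fit with only these 2 groups called 17 members, 3 higher and 14 lower, limma on log2(TPM + 1) called 2 higher and 7 lower, and DESeq2 2 higher and 6 lower. Left without split blastocyst pair 1, 2 or 3 or control blastocyst 2, the count was 1, 2, 1 and 1. The share of all genes called under these other fits is not given. At an unadjusted p under 0.05 limma had 15.7% of the members against 20.4% of all genes, and edgeR 10.3% against 15.2%. Trophectoderm markers were also apart between these groups, summing to 2138 to 3617 CPM in control and 4417 to 6850 CPM in split blastocysts, and their part in the Zfp differences was not tested.

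Zfp280d, a member of the Zfp280 family, held its call under all 26 alternatives. It stood at 8.62, 7.88 and 9.10 TPM in control blastocysts and at 1.96 through a median of 2.91 to 3.69 TPM in split blastocysts. The groups were well apart (log2 -1.35 ± 0.28, adjusted p = 0.00543). In morulae it stood at 3.01 to 5.80 TPM (control) and 1.91 to 5.36 TPM (split), log2 -0.90 ± 0.26 and adjusted p = 0.144, a difference in the same direction that did not pass in edgeR.

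Zfp131 stood at 94.6, 121 and 77.4 TPM in control blastocysts and at 21 through 26 to 51.6 TPM in split blastocysts (log2 -1.40 ± 0.33, adjusted p = 0.0121). Zfp106 stood at 66.2, 80.4 and 81.6 TPM against 12.6 through 27.1 to 32.1 TPM (log2 -1.32 ± 0.33, adjusted p = 0.0216). Neither overlapped, and the split blastocysts lay in the range of the morulae for Zfp106 and below every morula for Zfp131. The call of Zfp131 was lost without split pair 1 or 3 or control blastocyst 2 (adjusted p = 0.0810 to 0.0913), and that of Zfp106 without any split pair or without control blastocyst 2 or 3 (0.0592 to 0.101). Zfp644 stood at 11.9, 12.3 and 9.42 TPM against 1.43 through 2.86 to 4.61 TPM (log2 -1.77 ± 0.51, adjusted p = 0.0459). Its groups did not overlap, but the call was lost in 12 of 26 alternatives, leaving out any blastocyst unit among them (0.0641 to 0.179).

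**Figure D4:**
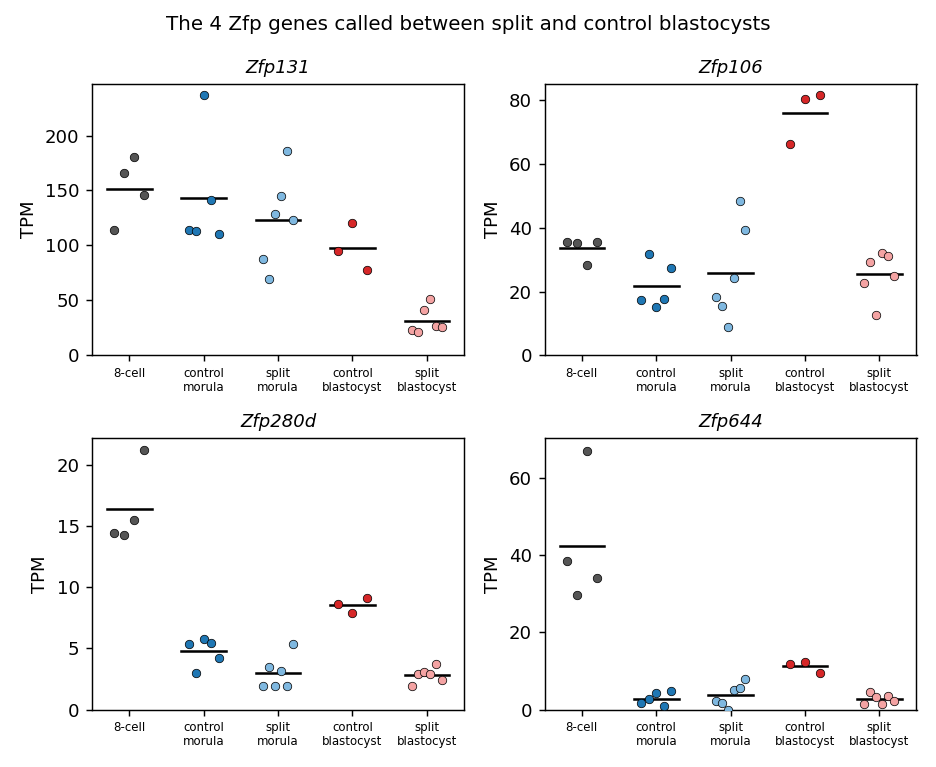
TPM of the 4 Zfp genes called between split and control blastocysts, in each of 24 embryos (linear axes from 0, 1 point per embryo, lines for group means). In all 4 panels the 6 split blastocysts lie below the 3 control blastocysts, as for Zfp131 (21 to 51.6 TPM against 77.4 to 121 TPM).

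Some members came near the threshold and did not pass. Zfp518a stood at 23.6, 21.7 and 26.5 TPM in control and 1.72 to 9.51 TPM in split blastocysts (adjusted p = 0.0766), and Zfp637 at 28, 5.55 and 26.1 TPM against 31.6 to 58.2 TPM (adjusted p = 0.0979). The imprint keeper Zfp57 stood at 18.5 through 31.2 to 55.5 TPM in split blastocysts and at 21.2 to 44.7 TPM in control blastocysts, so the split range reached past the control range at both ends (log2 0.17 ± 0.84). For Zfp445 the difference was -0.17 ± 0.38 and for Zfp706 0.07 ± 0.19. Zfp985 stood at 129 through 236 to 309 TPM against 179 to 613 TPM (log2 -0.71 ± 0.35, adjusted p = 0.345). These errors leave room for differences in either direction for Zfp57, Zfp445 and Zfp706.

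Split embryos from morula to blastocyst gave 13 called members, all lower at the blastocyst. That is 7.03% of the members against 4.17% of all genes (1.22% higher, 2.95% lower), and the medians were -0.38 and 0.05. On log2(TPM + 1) limma called 2 higher and 16 lower, and at an unadjusted p under 0.05 it had 20.5% of the members and 23.1% of all genes. Of the 13, the 8 with the KRAB pattern were Zfp51, Zfp599, Zfp820, Zfp932, Zfp936, Zfp951, Zfp960 and Zfp985, and the 5 without it Zfp131, Zfp143, Zfp239, Zfp622 and Zfp706. Zfp820 stood at 48.3 through 110.4 to 206 TPM in split morulae and at 1.28 through 10.6 to 25 TPM in split blastocysts (log2 -3.25 ± 0.60, adjusted p = 0.00390). Zfp985 stood at 471 through 713 to 1068 TPM and then at 129 through 236 to 309 TPM (log2 -1.84 ± 0.36, adjusted p = 0.00441). In both genes the split stages did not overlap. The log2 fall of Zfp985 in split embryos (-1.84) stands beside -1.87 in intact ones, and that of Zfp936 (-1.85 ± 0.29) beside -2.07. Zfp143 fell by 2.17 ± 0.35 and Zfp131 by 2.01 ± 0.33 on the log2 scale. The calls of Zfp951, Zfp599 and Zfp239 were lost without split morula pair 3 (adjusted p = 0.102, 0.181 and 0.206), in which these 3 genes were highest, and without split blastocyst pair 3 (0.148, 0.0503 and 0.119). The fall of Zfp706 was lost without split blastocyst pair 3 (0.0513) and in another alternative (0.0633), and that of Zfp622 without pair 1 (0.0555).

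The difference between the split effect at the blastocyst and at the morula was tested directly. With edgeR 0 of 185 members were called, against 1.64% of all genes (1.37% higher, 0.265% lower), with 16 members at an unadjusted p under 0.05 (8.65%, against 14.3% of all genes). DESeq2 called 4 (Zfp267 and Zfp977 higher, Zfp91 and Zfp664 lower), and limma on log2(TPM + 1) called 0. The share of all genes called by DESeq2 is not given here either. The lowest adjusted p was that of Zfp977, 0.0841, whose difference was 1.87 ± 0.54. For Zfp106 the difference was -1.35 ± 0.44 (adjusted p = 0.136) and for Zfp644 -1.98 ± 0.66 (0.148), so that their lower level in split blastocysts is not shown to be particular to that stage.

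**Figure D5:**
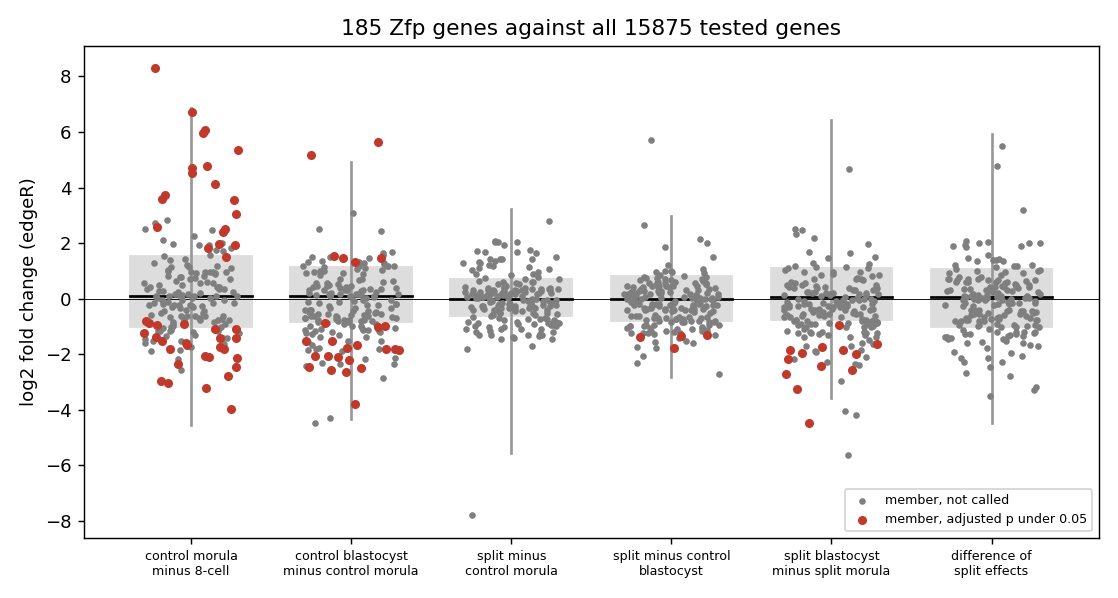
Log2 fold change (edgeR) of the 185 Zfp genes in the 6 comparisons, with points for genes, red for an adjusted p under 0.05, grey boxes for the quartiles, grey lines for the 5th to 95th percentiles and black bars for the median of all 15875 tested genes. From left to right 46, 25, 0, 4, 13 and 0 members are called, and the 4 and the 13 are all lower.

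The partners of the KRAB proteins were measured beside them. Among 30 tested genes of the TRIM28 and H3K9 methylation machinery, none of them a member, 3 rose and 12 fell from the 8-cell stage to the morula, where 14.3% of all genes rose and 10.7% fell (list median -0.58 on the log2 scale, all genes 0.09). Trim28 stood at 156 ± 23 TPM in 8-cell embryos, 102 ± 32.8 TPM in control morulae and 159 ± 36.6 TPM in control blastocysts, and its fall (log2 -0.68 ± 0.20, adjusted p = 0.0175) was lost without 8-cell embryo 1 (0.0525). From morula to blastocyst 3 of the list rose and 4 fell, or 23.3% called against 10.6% of all genes. Between split and control morulae 0 of the 30 were called, and in blastocysts 1 was higher and 2 were lower (4.74% of all genes called). The higher gene was Hdac1, at 84.1 ± 18.9 TPM in split against 30.4 ± 12.6 TPM in control blastocysts (log2 1.76 ± 0.35, adjusted p = 0.00336). The lower ones were Morc2a, whose call (adjusted p = 0.0499) was lost in 18 alternatives, any left-out blastocyst unit among them (0.0884 to 0.252), and Resf1, a partner of SETDB1 that stood at 18.6 ± 5.96 against 62.7 ± 4.88 TPM (log2 -1.49 ± 0.30, adjusted p = 0.00377). Resf1 was also the 1 gene of the list whose split effect differed between the stages (log2 -2.37 ± 0.39, adjusted p = 0.00412). Trim28 and Setdb1 differed by -0.05 ± 0.25 and -0.19 ± 0.42 between split and control blastocysts, and neither passed.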

How the data were processed

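The authors deposited raw read counts of 37229 gene symbols and TPM of 15625 genes for 24 single-embryo libraries.  The submitters' processing notes name FastQC, MultiQC, cutadapt, HISAT2, featureCounts, edgeR and GRCm39, without versions. The annotation release, the strand setting and the treatment of reads with several matches are not given in the sources used here.

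Counts of sister embryos were summed, which gave 18 units in 5 groups. Genes kept by filterByExpr (15875, all 185 members among them) got TMM factors. All groups entered 1 robust edgeR quasi-likelihood fit with 13 residual degrees of freedom and two-sided F tests. Adjusted p-values are Benjamini-Hochberg over all tested genes, called under 0.05. Where no tool stands beside one, it is from edgeR. Log2 fold changes are given ± SE and come from counts, whereas levels are the deposited TPM per embryo. "Lost" means an adjusted p of 0.05 or more under an alternative. The fit was tested on simulated counts. Alternatives were other scaling, filters, tools, units, membership and left-out units.

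The members, gene lists and classes were chosen with earlier results of these data known. Named genes were, per comparison, the 6 largest non-overlapping calls in each direction, the 12 most abundant members, the genes at the threshold and the list members, and a few others were named after their values were seen. KRAB and C2H2 patterns were matched in reading frames of GENCODE vM21 transcripts (GRCm38), and 50-base words were compared between its transcripts. Promoter sequences are RefSeq's (GRCm38.p6). Replicate numbers did not pair samples. Software was edgeR 4.0.16, DESeq2 1.42.0 and limma 3.58.1 in R 4.3.3.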

Additional observations from a re-analysis of the deposited data

Results flagged for a closer look

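A single embryo stood apart from the rest of its group, by the gap to its nearest neighbour over the range of the group, in 19 of 132 groups tested (the 8-cell embryos and the control morulae for each of 66 members). A share of about 1 in 20 by chance would hold for normally spread values, which TPM near 0 are not. Zfp119a and Zfp185, for example, had 1 and 2 counts over all 8-cell libraries. The number flagged is therefore not set against chance. Among 8-cell embryos the high values were 22 TPM for Zfp212 (next 8.6), 109 TPM for Zfp655 (next 55.6), 43.6 TPM for Zfp534 (next 34.5), 21.2 TPM for Zfp280d (next 15.5), 3.81 TPM for Zfp934 (next 1.37) and 2.45 TPM for Zfp951 (next 0.505). Lower ones of the same kind were 1.49 TPM for Zfp870, 1.07 TPM for Zfp931, 0.878 TPM for Zfp280c, 0.489 TPM for Zfp850, 0.0413 TPM for Zfp185 and 0.0380 TPM for Zfp119a, each against at most 0.292 TPM in the next embryo. An 8-cell embryo stood low for Zfp451 (2.85 TPM, next 7.32) and for Zfp106 (28.5 TPM, next 35.2). Among control morulae 1 embryo was high for Zfp131 (236 TPM, next 142), Zfp655 (82.3 TPM, next 51.4), Zfp664 (6.68 TPM, next 4.79) and Zfp292 (4.56 TPM, next 2.34), and 1 was low for Zfp518a (4.04 TPM, next 11.3).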

How the results depend on the processing

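None of 117 called gene results changed direction under any alternative run, while the fitted fold of 19 of 49 results that were not called took both signs, as for Zfp706 between split and control blastocysts (-0.19 to 0.16 on the log2 scale). The count of called members by comparison moved by over 1.5 times as follows. From 8-cell to morula (46) it was 28 with a mean TPM of 10 or more. That cut left only 80 of the 185 members, so the smaller count is that of a smaller set. From control morula to control blastocyst (25) it was 15 with each split embryo as its own sample, 40 with limma on log2(TPM + 1) and 39 with DESeq2. For split against control morulae (0) it was 1 with split embryos kept as single samples and 5 with DESeq2. For split against control blastocysts (4) it was 17 with only the groups compared, 9 with limma on log2(TPM + 1) and 8 with DESeq2. For split embryos from morula to blastocyst (13) it was 25 with each embryo as its own sample, 7 with only the groups compared and 20 with DESeq2. For the difference of split effects (0) it was 4 with DESeq2 and 1 with a mean TPM of 1 or more. The cause was not tested. The share of all genes called under each alternative is not given, so these counts are not set against it. Leaving out 1 unit at a time gave 39 to 49, 14 to 29, 0 to 0, 1 to 5, 10 to 15 and 0 to 0 in the same order. The replicate block gave 40, 21, 0, 4, 12 and 0, and since replicate numbers did not pair the samples (correlations of deviations from -0.03 to 0.08) these are no paired results. Of the called members and machinery genes, 33 of 61, 16 of 32, 3 of 7, 8 of 16 and 1 of 1 kept their call under every alternative in the comparisons with calls. Depth limits members near 1 to 3 counts in a group, and the 3 control blastocysts limit the comparisons that use them. The alternatives with a C2H2 pattern only, those without shared words and the scaling of the KRAB classes and neighbour runs were chosen after seeing the data. The planned version on RefSeq proteins was not run.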
